A study of Mus musculus with 9 samples.

Results

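Lin28b and 9 genes known as targets of the let-7 microRNAs were followed through RNA-seq of immortalised Cebpb-ko MEFs, mouse embryonic fibroblasts that lack functional C/EBPβ. The 10 genes were listed by name, with earlier results of these data known. The study had reported the rise of Lin28b under LIP from these same data, so its test here is no independent support. It also reported the rise by qRT-PCR and immunoblot in Cebpb-ko MEFs, and lower levels of most let-7 microRNAs with LIP there. Those measurements are not part of the counts used here. Of the 10 genes, 8 had at least 1 read, among 23337 genes in the table and 18725 genes with any read. The 9 libraries came from cells of mixed C57BL/6 x 129 background stably transfected with an empty vector (EV), with C/EBPβ-LAP or with C/EBPβ-LIP, in 3 libraries per group. Both isoforms arise from the same Cebpb mRNA, LIP as a truncated form of LAP, and here both were of rat origin, whereas all 3 groups shared the Cebpb knockout, which makes EV a control without either isoform. Nothing in the labels or methods says that the 3 libraries of a group came from separate cultures, so p-values measure the spread between these libraries, which may be technical.

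LIN28B is an RNA-binding protein of embryonic tissues and tumours. It binds the precursors of let-7 and blocks their maturation. Mature let-7 in turn represses mRNAs with matching sites in their 3′ UTR, including that of Lin28b itself, so the pair forms a loop in which each side holds down the other. HMGA2 and HMGA1 are chromatin-bound architectural proteins, IGF2BP1, IGF2BP2 and IGF2BP3 are mRNA-binding proteins of fetal tissue, ARID3A is a DNA-binding protein, TRIM71 is a stem cell ubiquitin ligase and RNA-binding protein, DICER1 cuts microRNA precursors and MYC is a transcription factor of growth genes. The comparison asked whether the targets moved with Lin28b between groups and from library to library.

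The let-7 family recognises its targets mainly through the seed, bases 2 to 8 of the mature microRNA. The following mature sequences, from RefSeq on GRCm38.p6, show how little the family differs in this stretch, which stands in capitals.
mmu-let-7a-5p: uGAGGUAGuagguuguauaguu
mmu-let-7c-5p: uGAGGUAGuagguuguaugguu
mmu-let-7g-5p: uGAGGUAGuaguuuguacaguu
mmu-let-7i-5p: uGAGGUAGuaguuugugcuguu
mmu-miR-98-5p: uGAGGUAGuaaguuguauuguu
mmu-let-7j: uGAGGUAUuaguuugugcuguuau
The seed GAGGUAG was shared by 10 mature sequences from 12 loci, and let-7j alone carried GAGGUAU.

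The complement of the common seed, CTACCTC, was searched on the transcript strand of the longest 3′ UTR of each gene in GENCODE vM21 on GRCm38. Of 21010 genes with a 3′ UTR, 9.02% held this 7-mer, 1.08% held it at least 2 times and 3.06% held the 8-mer with an A after it, CTACCTCA, which is a subset of the 7-mers. Lin28b held 4 matches, and they are shown in 5′ to 3′ order of the transcript with the match in capitals, because Lin28b is both the blocker and a target of let-7.
Lin28b match 1, chr10:45381022-45381044, minus strand: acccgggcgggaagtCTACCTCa
Lin28b match 2, chr10:45378648-45378670, minus strand: tatacttgttagtaaCTACCTCt
Lin28b match 3, chr10:45378476-45378498, minus strand: gtttacagcacatggCTACCTCc
Lin28b match 4, chr10:45377060-45377082, minus strand: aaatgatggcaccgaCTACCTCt
Among UTRs within 20% of its length, 24.2% held a match and 0.236% held as many. A match describes letters in the window and is not a measured binding site. All matches printed lie within 3′ UTR exons, and the positions of whole genes given later come from the same annotation and build.

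Hmga2, Igf2bp1 and Trim71 also held 4 matches each, Arid3a held 2, and Igf2bp2, Igf2bp3 and Hmga1 held 1. Dicer1 and Myc held none in this window. For each other target that carried the 8-mer, its first one is shown, since these are the targets set beside Lin28b in the results.
Hmga2, chr10:120364224-120364246, minus strand: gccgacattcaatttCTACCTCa
Igf2bp1, chr11:95961778-95961800, minus strand: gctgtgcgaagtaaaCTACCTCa
Igf2bp2, chr16:22059473-22059495, minus strand: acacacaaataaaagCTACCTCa
Igf2bp3, chr6:49086787-49086809, minus strand: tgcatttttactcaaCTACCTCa
Arid3a, chr10:79953895-79953917, plus strand: aaggcaagtttctttCTACCTCa
Trim71, chr9:114512472-114512494, minus strand: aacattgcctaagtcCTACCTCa
All 4 matches of Trim71 were 8-mers, against 3 of the 4 in Igf2bp1 and 1 each in Lin28b and Hmga2.

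The reads assigned to genes numbered 24839139 to 33522082 per library, so that 3 counts, taken as the floor, stood for 0.0895 to 0.121 CPM, the count relative to the library total. CPM below were scaled by TMM, edgeR's correction for differences in library composition, and the floors cover counting error only. The share of reads on 80 ribosomal protein genes was 5.73% to 7.51% in 7 libraries, but 11.0% in LAP replicate 2 and 10.05% in LIP replicate 2, which were also the libraries of their groups with the most Lin28b. Their part in the results was not tested. Values without them are given for Lin28b, the targets and the classes of let-7 matches, not for other named genes. Cebpb had 684 to 1077 reads in every library, EV included, so its reads do not check the labels. All 9 fibroblast markers were detected, with a summed level of 35240 to 39700 CPM in EV, 29425 to 43146 CPM in LAP and 17008 to 30241 CPM in LIP. The part of this lower sum in the LIP results was not tested. Of the markers of other cells, Ptprc, Pecam1, Pou5f1 and Sox2 were listed at 0 in every library, while others of the same lists had reads. The 3 immune markers summed to 3.43 to 8.88 CPM, mostly Cd68, and the 3 endothelial markers to 1.38 to 3.11 CPM, mostly Kdr. The 5 pluripotency markers summed to 1.42 to 2.84 CPM, mostly Nanog. The 6 epithelial markers summed to 485 to 1004 CPM, mostly Krt8 and Krt14. In bulk RNA, fewer cells of a type and less RNA per cell cannot be told apart.

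Lin28b, at chr10:45376620-45486395 on the minus strand, was higher in LIP than in EV and in LAP. It had 163, 130 and 110 reads in the EV libraries, 154, 248 and 87 in LAP, and 324, 1017 and 347 in LIP. Scaled, these were 5.07, 4.80 and 3.22 CPM in EV, 4.75, 8.91 and 3.22 CPM in LAP, and 13.2, 33.3 and 11.2 CPM in LIP. Every LIP library stood above every EV and LAP library, and LIP replicate 2 stood far above the other LIP libraries. The means were 4.36 ± 0.998 CPM in EV, 5.63 ± 2.95 CPM in LAP and 19.3 ± 12.2 CPM in LIP (SD, n = 3 libraries each).

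The log2 fold change of Lin28b was 2.14 ± 0.377 (SE) in LIP against EV, with an adjusted p of 0.0379 by edgeR's quasi-likelihood test over all genes. Against LAP it was 1.80 ± 0.393, with an adjusted p of 0.0327 in edgeR. In LAP against EV it was 0.35 ± 0.317, with an adjusted p of 0.918 in edgeR, and it turned to -0.13 without LAP replicate 2. The exact permutation test of 3 libraries against 3 cannot give a p below 0.1, and it gave 0.1 for LIP against each other group. The call in LIP against EV was lost without EV replicate 2 (2.23, edgeR adjusted p = 0.140), EV replicate 3 (1.96, 0.0587) or LIP replicate 2 (1.48, 0.0519), with total counts as the only scaling (2.22, 0.0670) and with a filter on low counts (2.17, 0.171). Against LAP the call was lost without LAP replicate 2 (2.27, edgeR adjusted p = 0.0927), LIP replicate 1 (2.01, 0.0695) or LIP replicate 2 (1.14, 0.194), without both LAP replicate 2 and LIP replicate 2 (1.60, 0.251) and with the filter on low counts (1.81, 0.237). In LIP against EV, Lin28b kept the call in DESeq2's Wald test (2.16, adjusted p = 3.30e-05). With the replicate number as a block, edgeR kept it in LIP against EV (1.99, adjusted p = 0.000556) and in LIP against LAP (1.75, 3.02e-10). These blocked fits called 2.57% and 6.51% of all genes.

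**Figure D1:**
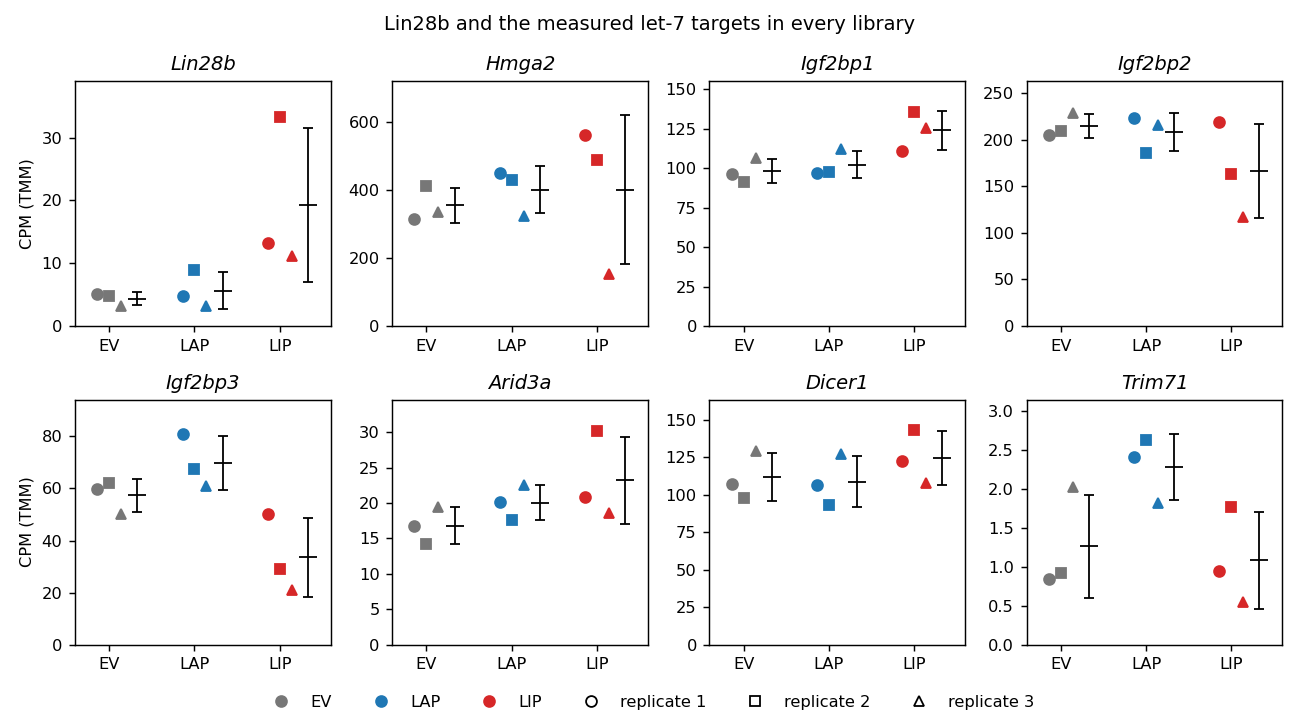
Level of Lin28b and of the 7 measured targets in every library, in TMM-scaled CPM on linear axes that start at 0, with groups along the x axis and replicate numbers as symbols. The bar beside each group is the mean with the SD of its 3 libraries. The 3 LIP libraries of Lin28b lie between 11.2 and 33.3 CPM, above all EV and LAP libraries, whereas Hmga2 spans 152 to 561 CPM within LIP.

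None of the 7 targets with reads passed the threshold in LIP against EV in the fit without a block, where edgeR called 0.396% of 18203 genes. At an unadjusted p under 0.05, 2 of the 7 passed, Igf2bp1 upward and Igf2bp3 downward, beside 11% of all genes, and DESeq2 called 0 of the 7. Of the 7, 4 had a log2 fold change above 0, beside 54% of all genes, and the median of the 7 was 0.16, beside 0.04 over all genes tested. In 2 of them, Igf2bp1 and Igf2bp3, the LIP and EV libraries did not overlap, beside 15.6% of all genes. With the replicate number as a block, Igf2bp3 passed (-0.87 ± 0.199, edgeR adjusted p = 0.0266), in a fit that called 2.57% of all genes.

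Hmga2, whose product bends DNA in chromatin and is abundant in embryonic cells, spans chr10:120361275-120476469. It had 315, 412 and 335 CPM in EV, 450, 428 and 323 CPM in LAP, and 561, 489 and 152 CPM in LIP. The highest and the lowest library of all 9 were both LIP libraries, so the groups overlapped fully. The LIP against EV log2 fold change was 0.18 ± 0.353, with an edgeR adjusted p of 0.876, and it turned to -0.13 without LIP replicate 1.

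The 3 Igf2bp genes encode closely related proteins that bind and stabilise mRNAs. Igf2bp1 at chr11:95957163-96005940 had 96.0, 91.4 and 106 CPM in EV, 97.0, 97.3 and 112 CPM in LAP, and 111, 135 and 125 CPM in LIP. All LIP libraries stood above all EV libraries, but LIP replicate 1 stood below LAP replicate 3. The log2 fold change in LIP against EV was 0.34 ± 0.151, with an edgeR adjusted p of 0.446.

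Igf2bp2 at chr16:22059009-22163299 had 206, 209 and 229 CPM in EV, 224, 185 and 216.1 CPM in LAP, and 219, 164 and 117 CPM in LIP. LIP replicate 1 lay among the EV and LAP libraries and the other two LIP libraries lay below them. The log2 fold change in LIP against EV was -0.37 ± 0.207, with an edgeR adjusted p of 0.569.

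Igf2bp3 at chr6:49085223-49214957 had 60.0, 62.0 and 50.3 CPM in EV, 81.0, 67.4 and 60.9 CPM in LAP, and 50.2, 29.2 and 21.0 CPM in LIP. Every LIP library was below every EV and LAP library, by a narrow margin for LIP replicate 1 against EV replicate 3. Its log2 fold change in LIP against EV was -0.78 ± 0.260, with an unadjusted p of 0.0106 and an adjusted p of 0.268 in edgeR, and it passed the threshold without LIP replicate 1 (-1.19, edgeR adjusted p = 0.0262). The direction was opposite to that of Lin28b in the same libraries.

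Arid3a at chr10:79927043-79955018 had 16.7, 14.2 and 19.5 CPM in EV, 20.1, 17.5 and 22.5 CPM in LAP, and 20.9, 30.1 and 18.5 CPM in LIP. LIP replicate 2 was the highest library, as for Lin28b, and the other two LIP libraries lay within the range of LAP. The log2 fold change in LIP against EV was 0.46 ± 0.218, with an edgeR adjusted p of 0.463.

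Dicer1 at chr12:104687742-104751952, the let-7 processing enzyme of the list, had 107, 97.9 and 129 CPM in EV, 107, 92.8 and 127 CPM in LAP, and 123, 143 and 108 CPM in LIP. The groups overlapped, and the log2 fold change in LIP against EV was 0.16 ± 0.168, with an edgeR adjusted p of 0.710.

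Trim71 at chr9:114507133-114564369 was the least expressed target, with 27, 25 and 69 reads in EV, 78, 73 and 49 in LAP, and 23, 54 and 17 in LIP. These were 0.840, 0.923 and 2.02 CPM in EV, 2.40, 2.62 and 1.81 CPM in LAP, and 0.939, 1.77 and 0.549 CPM in LIP. The LAP libraries stood above the LIP libraries, and EV replicate 3 lay among LAP. In LIP against EV the log2 fold change was -0.22 ± 0.468, with an edgeR adjusted p of 0.889, and it turned to 0.30 without EV replicate 3 and to 0.12 without LIP replicate 3.

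Hmga1 at chr17:27556497-27563674 and Myc at chr15:61985391-61990374 were listed at 0 in all 9 libraries. Growing fibroblasts usually express both genes, and a listing at 0 does not show that a gene is silent, which holds for the markers listed at 0 as well. Neither gene has a level to compare or entered any fit, and the cause of the listing was not tested. Pvt1, the non-coding neighbour of Myc, had 709 to 2118 reads per library.

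**Figure D2:**
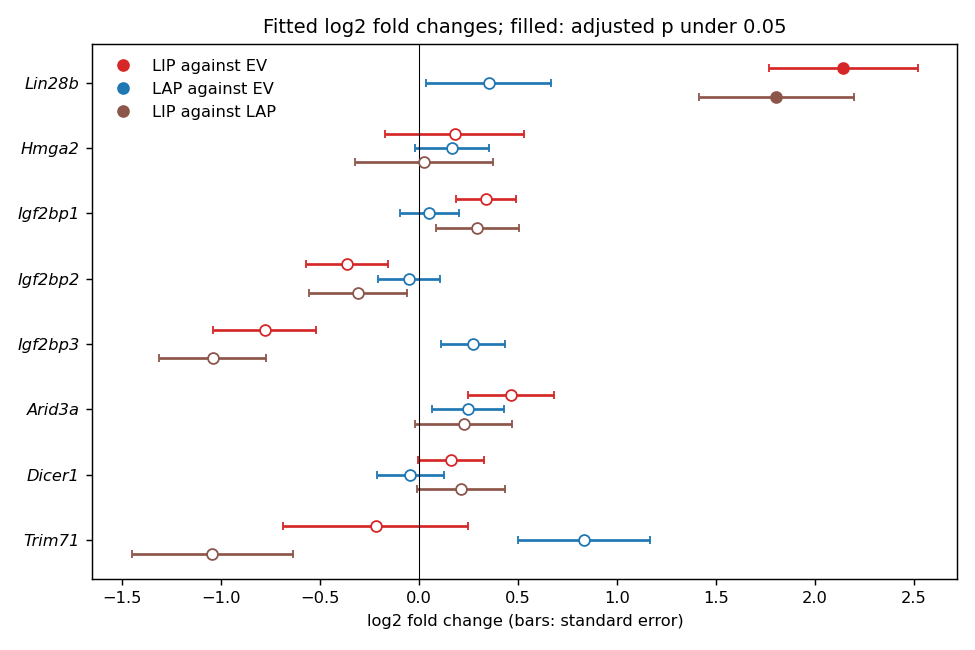
Fitted log2 fold changes of Lin28b and the 7 measured targets in the 3 comparisons, on the x axis with bars of 1 standard error, and genes along the y axis. Filled points passed an adjusted p of 0.05. Lin28b passed in LIP against EV at 2.14 and in LIP against LAP at 1.80, and no target passed in this fit.

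In LAP against EV, 0 of the 7 targets passed the threshold in edgeR and in DESeq2, where edgeR called 0.0606% of 18156 genes. At an unadjusted p under 0.05, 1 passed, Trim71, beside 3.27% of all genes. Its log2 fold change was 0.83 ± 0.334, with an unadjusted p of 0.0260 and an adjusted p of 0.918 in edgeR. Of the 7, 5 lay above 0, beside 52.2% of all genes. Apart from Trim71 they lay between -0.05 for Igf2bp2 and 0.27 for Igf2bp3, the median of the 7 was 0.17 beside 0.02 over all genes, and no target had groups without overlap, beside 7.57% of all genes.

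In LIP against LAP, 0 of the 7 targets passed in the fit without a block, where edgeR called 1.05% of 18166 genes, and DESeq2 also called 0. At an unadjusted p under 0.05, 2 passed, both lower in LIP, beside 9.28% of all genes. Igf2bp3 had a log2 fold change of -1.04 ± 0.271, with an adjusted p of 0.0754 in edgeR, and Trim71 had -1.04 ± 0.408, with an adjusted p of 0.369. These 2 were also the targets whose LIP and LAP libraries did not overlap, beside 12.8% of all genes. Libraries of the same number deviated together in LAP and LIP, and with the replicate number as a block both genes fell in LIP against LAP. Igf2bp3 then had -1.12 ± 0.182 with an edgeR adjusted p of 1.36e-06, and Trim71 had -1.14 ± 0.317 with an adjusted p of 0.0116, in a fit that called 6.51% of all genes. Without the block, Igf2bp3 passed without LAP replicate 3 (-1.09, edgeR adjusted p = 0.0248) or LIP replicate 1 (-1.46, 0.0298). Of the 7 targets, 4 lay above 0, beside 52.6% of all genes. Their median was 0.02, as over all genes, and the remaining targets lay between -0.31 for Igf2bp2 and 0.29 for Igf2bp1.

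Per kilobase of exon, the members covered a wide range of levels in EV. Hmga2 led with 52.3 ± 7.56 CPM per kilobase, followed by Igf2bp2 with 29.0 ± 1.72 and Igf2bp1 with 10.1 ± 0.794 (SD, n = 3). Igf2bp3 with 7.04 ± 0.770 and Dicer1 with 6.66 ± 0.958 overlapped and could not be ordered. Arid3a had 3.02 ± 0.474, Lin28b 0.481 ± 0.110 and Trim71 0.135 ± 0.0707 CPM per kilobase. In LIP, Lin28b reached 2.12 ± 1.35 CPM per kilobase, still below the 4.17 ± 1.10 of Arid3a on average, though its highest library at 3.68 overlapped the Arid3a libraries, which began at 3.33. These levels rest on the total exon length of each gene in GENCODE vM21, not on the transcripts in use.

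From library to library, the targets did not share a direction with Lin28b. Pearson's r of log2 CPM over the 9 libraries was above 0 for 4 of the 7 targets, whereas 48.6% of the 11534 genes that averaged at least 20 counts per library were above 0. Igf2bp1 had an r of 0.67, with an exact permutation p of 0.0465 and 0.248 after adjustment over all 11534 genes, and a Spearman's rho of 0.40 with an exact p of 0.291. Arid3a had an r of 0.56 (exact permutation p = 0.122, adjusted 0.365) and a rho of 0.13 (exact p = 0.744). Dicer1 had an r of 0.29 (exact p = 0.452) and a rho of 0.083 (exact p = 0.843), and Hmga2 an r of 0.19 (exact p = 0.616) and a rho of 0.40 (exact p = 0.291).

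The other 3 targets ran the opposite way over the 9 libraries. Igf2bp3 had an r of -0.63 (exact permutation p = 0.0705, adjusted 0.288) and a rho of -0.57 (exact p = 0.121). Igf2bp2 had an r of -0.57 (exact permutation p = 0.107, adjusted 0.345) and a rho of -0.63 (exact p = 0.0760). Trim71 had an r of -0.16 (exact p = 0.685) and a rho of -0.35 (exact p = 0.359). Across the 7 relations, no r and no rho passed an adjusted p of 0.05, where r of 0.399% of all genes did and rho of none did.

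The relations changed where LIP libraries were left out. Without LIP replicates 1 and 2, the libraries farthest from the median in Lin28b, 1 of the 7 targets stayed above 0, Igf2bp1 with an r of 0.26. Hmga2 then had -0.47, Arid3a -0.30, Dicer1 -0.68, Trim71 -0.39, Igf2bp3 -0.54 and Igf2bp2 -0.85, over 7 libraries. The exact permutation p was 0.00278 for Igf2bp2, opposite in direction to Lin28b, and ran from 0.0972 for Dicer1 to 0.570 for Igf2bp1 in the others. No adjustment over all genes was made for these 7 libraries. LIP replicate 2 alone was enough to turn 3 targets, since without it Hmga2 had an r of -0.05, Arid3a -0.04 and Dicer1 -0.31, and 1 of the 7 was above 0. Without LAP replicate 2 and LIP replicate 2, the libraries with the high ribosomal share, 2 of the 7 were above 0.

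Over the 6 libraries of EV and LAP alone, in which Lin28b ran from 3.22 to 8.91 CPM, 3 of the 7 targets had an r above 0, beside 53.3% of all genes. These were Hmga2 with 0.59 (exact permutation p = 0.249, adjusted over all genes 0.457), Igf2bp3 with 0.48 (exact p = 0.324, adjusted 0.529) and Trim71 with 0.14 (exact p = 0.846, adjusted 0.921). Dicer1 had an r of -0.91 (exact permutation p = 0.0111, adjusted over all genes 0.145) and Igf2bp2 -0.88 (exact permutation p = 0.0194, adjusted 0.159). Neither passed the adjustment, and the smallest adjusted p that any gene reached here was 0.145. Unadjusted, 22.1% of all genes had an exact p under 0.05 in these libraries. Arid3a had -0.46 and Igf2bp1 -0.64 in these libraries, against 0.56 and 0.67 over all 9, while Igf2bp3 and Trim71 turned the other way, from -0.63 and -0.16 over all 9. Dicer1 also changed sign, and Hmga2 and Igf2bp2 kept theirs.

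**Figure D3:**
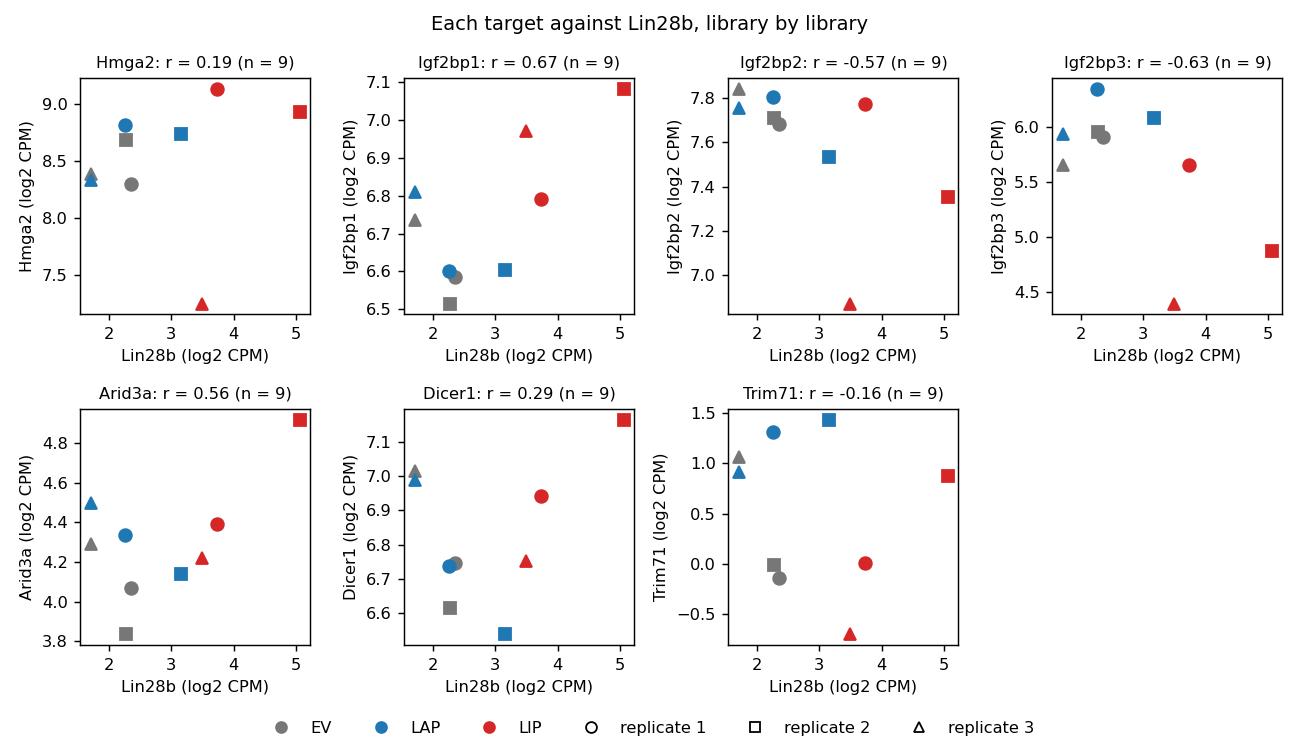
Each of the 7 measured targets on the y axis against Lin28b on the x axis, both in log2 CPM, with 1 point per library, colours for groups and symbols for replicate numbers. The y axes differ in range. LIP replicate 2 lies far to the right in every panel, and the panels of Igf2bp2 and Igf2bp3 slope downward with r of -0.57 and -0.63.

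Within groups, after the group means were removed, r with Lin28b was 0.48 for Hmga2, 0.46 for Trim71, 0.20 for Arid3a, 0.11 for Igf2bp3, -0.07 for Igf2bp1, -0.09 for Igf2bp2 and -0.14 for Dicer1. The exact permutation p, over all arrangements of the libraries within groups, ran from 0.329 for Trim71 to 0.875, and 4 of the 7 were above 0 beside 51.2% of all genes. That number was 7 without LAP replicate 2, and 2 without LIP replicate 2 or without LIP replicate 3. With so few arrangements no gene passed the adjustment over all genes, the smallest adjusted p being 0.199. Unadjusted, 14.6% of all genes had an exact p under 0.05 within groups. In edgeR, a slope on the log2 level of Lin28b within groups was called for 1.96% of 18724 genes and for 0 of the 7 targets, whose unadjusted p ran from 0.176 to 0.917, so that none passed unadjusted beside 16.8% of all genes. The library with the most Lin28b within a group also had the most Trim71 in LAP and in LIP, and the most Igf2bp1, Arid3a and Dicer1 in LIP, but never the most Hmga2, Igf2bp2 or Igf2bp3.

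The genes whose levels were most like those of Lin28b over the 9 libraries were none of the 7 targets. They were Zfp7 (r = 0.98), Zmynd15 (0.97), Mthfsd (0.97), 5830416P10Rik (0.97) and Cdk3-ps (0.96), with r within groups of 0.96, 0.93, 0.94, 0.95 and 0.88. Like Lin28b, each had its highest level in LIP replicate 2 and its highest LAP level in LAP replicate 2, the libraries with the high ribosomal share. Their r without these libraries was not computed. These were picked for their likeness from 11534 genes that share the same 9 libraries.

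Further let-7 targets from the literature gave a mixed picture as well. Of 35 genes on that list, 32 were tested in LIP against EV, with 0 called, 4 higher and 1 lower at an unadjusted p under 0.05, beside 0.396% and 11% of all genes, and a median log2 fold change of 0.15 beside 0.04 over all genes. In LAP against EV, 0 of 35 were called and 1 was higher unadjusted, beside 0.0606% and 3.27% of all genes, and the median was -0.0042. In LIP against LAP, 1 of 35 was called, higher in LIP, with 5 higher and 1 lower unadjusted, beside 1.05% and 9.28% of all genes, and a median of 0.09. The called gene was Irs2, an adaptor of the insulin receptor, with 51.9, 54.9 and 49.2 CPM in EV, 42.4, 34.8 and 49.5 CPM in LAP and 72.3, 77.5 and 93.6 CPM in LIP. All LIP libraries stood above the rest. Its log2 fold change was 0.96 ± 0.219 against LAP, with an edgeR adjusted p of 0.0406, and 0.64 ± 0.155 against EV, with an adjusted p of 0.109. Its r with Lin28b was 0.59 over the 9 libraries and -0.59 within groups.

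Arid3b, a paralogue of Arid3a, and Ccnj, a cyclin, came closest to Lin28b over the 9 libraries among the further targets. Both were named for a small p in LIP against EV, where both and Lin28b were higher in LIP. Their r over the 9 libraries is therefore no independent support. Arid3b had 3.05, 3.32 and 1.87 CPM in EV, 3.27, 3.77 and 1.78 CPM in LAP, and 4.90, 8.03 and 3.84 CPM in LIP. Its r with Lin28b was 0.95 (exact permutation p = 4.13e-05, adjusted over all genes 0.0386), its rho 0.95 (exact p = 0.000353, adjusted 0.131) and its r within groups 0.92 (exact p = 0.00926, adjusted 0.199). Without the 2 libraries farthest in Lin28b its r was 0.86 (exact p = 0.0355). In LIP against EV its log2 fold change was 1.03 ± 0.327, with an edgeR adjusted p of 0.237.

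Ccnj had 19.4, 17.0 and 17.5 CPM in EV, 20.2, 20.9 and 17.6 CPM in LAP, and 23.6, 32.9 and 21.0 CPM in LIP. Its r was 0.94 (exact permutation p = 0.000171, adjusted over all genes 0.0473), its rho 0.85 (exact p = 0.00607, adjusted 0.267), its r within groups 0.87 (exact p = 0.0139, adjusted 0.216) and its r without the 2 farthest libraries 0.81 (exact p = 0.0274). LIP replicate 2 was the highest library for both genes, and LAP replicate 2 was the highest of the LAP libraries. These are the libraries with the high ribosomal share, and r without them was not computed for Arid3b or Ccnj. The 2 farthest libraries left out above were LIP replicates 1 and 2, so LAP replicate 2 stayed in. Over the whole list, 20 of 30 genes that averaged at least 20 counts had an r above 0 over the 9 libraries and 17 of 30 within groups, beside 48.6% and 51.2% of all genes.

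Of 20 genes that process let-7 or carry out its silencing, Dicer1 and Trim71 included, 19 were tested in LIP against EV and 20 in each other comparison, and edgeR called 0. At an unadjusted p under 0.05, 1 was higher and 1 was lower in each comparison, beside 11% of all genes in LIP against EV, 3.27% in LAP against EV and 9.28% in LIP against LAP. In LIP against EV the higher gene was Hnrnpa1, an RNA-binding protein that restrains let-7 processing. Its log2 fold change was 0.63 ± 0.182, with an edgeR adjusted p of 0.190. Eif2c4, the Argonaute now named Ago4, was lower, with -1.30 ± 0.515 and 0.375. It had few reads, 22, 13 and 44 in EV, 10, 9 and 12 in LAP, and 5, 7 and 17 in LIP. Eif2c4 was also the lower gene in LAP against EV, with -1.21 ± 0.426 and an edgeR adjusted p of 0.918. Trim71, already counted among the targets, was the higher gene there. It was the lower gene in LIP against LAP, where Hnrnpa1 was the higher. Tnrc6c, a partner of the Argonautes in silencing, had 0.27 ± 0.172 in LIP against EV, with an edgeR adjusted p of 0.633. Of 17 genes of this list that averaged at least 20 counts, 11 had an r with Lin28b above 0 over the 9 libraries, beside 48.6% of all genes. Within groups 4 of the 17 did, beside 51.2%, with a median r of -0.36. Lin28a, the paralogue of Lin28b, had 1 read in all 9 libraries together. The 12 let-7 loci of the table gathered 45 reads over all libraries, 4 of them were at 0 throughout, and only Mirlet7d had over 3 reads in a library, 13 in LIP replicate 2. Counts on such short loci do not measure mature let-7. Huwe1 and Wdr82, whose introns host let-7 loci, had log2 fold changes in LIP against EV between 0.04 and 0.14. Their r with Lin28b was -0.07 and -0.20 over the 9 libraries and -0.76 and -0.77 within groups.

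Over all genes, the number of let-7 matches went with little change in LIP against EV up to 2 matches. Among genes that averaged at least 20 counts, the median log2 fold change was 0.01 in 9007 genes without a match, -0.01 in 955 genes with 1 and 0.03 in 111 genes with 2. In 21 genes with at least 3 matches it was 0.18, and 16 of the 21 were above 0, beside 50.8% of all genes in these classes. Of the 21, 17 were no members, and 13 of the 17 were above 0 with a median of 0.18. Without LIP replicate 2 the median of the 21 genes fell to 0.04, with 15 above 0, beside 51.9% of all. In LIP against LAP, 15 of 20 such genes were above 0 with a median of 0.18, and 14 of 20 with 0.14 without LAP replicate 2 and LIP replicate 2. In LAP against EV, 10 of 22 were above 0 with a median of -0.02. LIP against EV and LIP against LAP share the LIP libraries. Genes with many matches have long UTRs, and 1224 genes without a match and with a UTR of at least 3000 bases had a median of -0.02 in LIP against EV. The median of this kind of gene was 0.03 in LIP against LAP and -0.05 in LAP against EV. These classes are described without a test, and the one with at least 3 matches holds few genes.

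**Figure D4:**
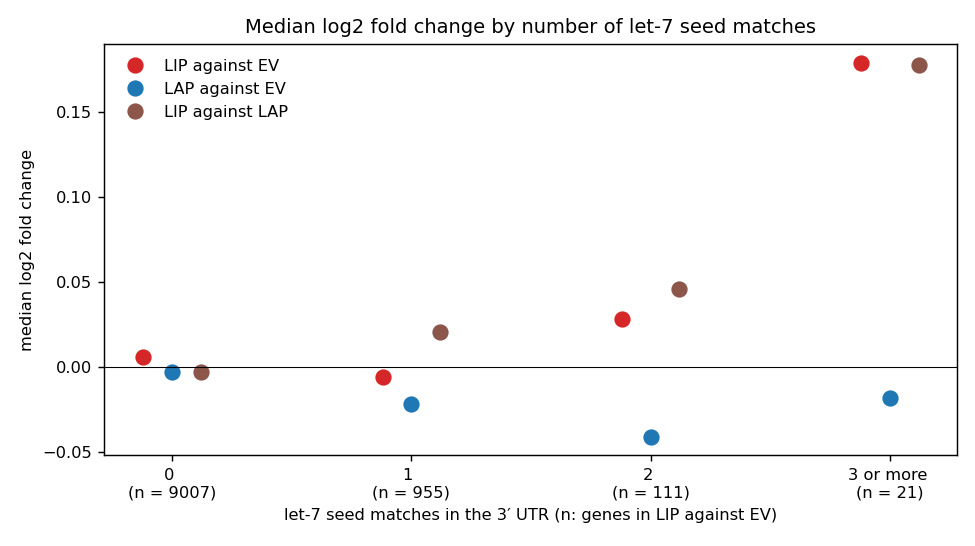
Median log2 fold change on the y axis by the number of let-7 seed matches in the longest 3′ UTR on the x axis, for the 3 comparisons. The class with at least 3 matches stands at 0.18 in LIP against EV and in LIP against LAP and at -0.02 in LAP against EV, on 20 to 22 genes.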

How the data were processed

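RNA of 9 libraries was prepared with the TruSeq RNA v2 kit and sequenced as single-end reads. The authors deposited raw counts per gene, made per the labels with bcl2fastq 1.8.3, TopHat 1.4.1 and HTSeq 0.5.4 on mm10. The strand setting and the handling of reads with several alignments are not given in the sources used here. Genes with at least 1 count in the libraries compared were scaled by TMM. Groups were compared by the quasi-likelihood test of edgeR 4.0.16 (R 4.3.3) without covariates, with Benjamini-Hochberg adjustment and a threshold of 0.05. A standard error is the absolute log2 fold change over the root of the test's F.

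Levels for correlations were log2 CPM with a prior count of 2. Exact two-sided permutations covered 362880 arrangements over 9 libraries, 720 over 6 libraries and all permutations within groups, and p-values were adjusted over all 11534 genes compared. Those over 9 and over 6 libraries ignored the groups, so that a shared shift between groups alone can give a small p. The members and lists were chosen with earlier results of these data known. Named were the members, listed genes past the threshold, up to 3 per list with the smallest p in LIP against EV, and the 5 genes most like Lin28b.

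Replicate numbers come from the labels. Same-numbered libraries deviated together in LIP and LAP (r of 0.558, 0.413 and 0.466) and in LAP and EV (0.524, 0.210 and 0.511), which met the rule for pairing. The tests were tried on simulated data with a fixed spread between libraries and no likeness of same-numbered ones. Those trials do not show how the tests behave on these libraries. Alternatives were other scalings, a filter on low counts, DESeq2 1.42.0, a joint fit of all libraries, the replicate block and each library left out in turn.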

Additional observations from a re-analysis of the deposited data

How the results depend on the processing

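The choices without a value printed below kept the direction and the side of the threshold of Lin28b and of the targets. Leaving out libraries 2 at a time was chosen after seeing the data, and the cause of the changes was not tested. For Lin28b in LIP against EV, the call was lost with total counts only (2.22) and with filterByExpr (2.17), and leaving out each library gave 1.48 to 2.43, with 3 of 6 fits past the threshold. In LIP against LAP it was lost with filterByExpr (1.81) and without LAP replicate 2 and LIP replicate 2 (1.60), and leaving out each library gave 1.14 to 2.27. In LAP against EV leaving out each library gave -0.13 to 0.62.

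The replicate block called 1 target in LIP against EV (Igf2bp3, -0.87, edgeR adjusted p = 0.0266, beside 2.57% of all genes) and 2 in LIP against LAP, and it changed no other call of Lin28b or the targets. In LIP and EV same-numbered libraries correlated at 0.290, -0.121 and 0.231, beside means of -0.088, 0.049 and -0.153 with the other numbers. Only replicate number 2 therefore failed to go together, and 4 of 6 libraries correlated best with their own number. With the block the median of the targets was -0.0096 in LIP against EV and -0.17 in LIP against LAP, in both cases the value of Hmga2. Leaving out each library moved the median between -0.12 and 0.28 in LIP against EV and between -0.30 and 0.29 in LIP against LAP, and the number of targets called between 0 and 1. Without LAP replicate 2 and LIP replicate 2, the LIP against LAP log2 fold change turned to -0.13 for Hmga2, -0.12 for Arid3a and -0.028 for Dicer1.

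Over 9 libraries, r with Lin28b turned with the replicate block for Hmga2 (-0.14), and without LAP replicate 2 and LIP replicate 2 for Hmga2 (-0.11) and Dicer1 (-0.18), which left 2 targets above 0. Leaving out each library left 1 to 4 above 0. Within groups, r turned with total counts only for Igf2bp1 (0.12) and Dicer1 (0.022), with CPM without log for Igf2bp1 (0.42), Igf2bp3 (-0.092) and Dicer1 (0.39), and with the replicate block for Hmga2 (-0.13), Igf2bp1 (0.73), Igf2bp3 (-0.59) and Dicer1 (0.35). Without LAP replicate 2 and LIP replicate 2 it turned for Igf2bp2 (0.15), Arid3a (-0.64) and Trim71 (-0.38), and leaving out each library left 2 to 7 above 0.

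Leaving out each library also turned single targets, none of them called in the fits concerned. In LIP against EV it gave -0.13 to 0.58 for Hmga2 and -0.79 to 0.30 for Trim71. In LAP against EV it gave -0.028 to 0.11 for Igf2bp1, -0.11 to 0.036 for Igf2bp2 and -0.18 to 0.073 for Dicer1. In LIP against LAP it gave -0.30 to 0.41 for Hmga2 and -0.017 to 0.36 for Arid3a. For r over the 9 libraries it gave -0.046 to 0.74 for Hmga2, -0.037 to 0.73 for Arid3a and -0.31 to 0.48 for Dicer1. For r within groups it gave -0.75 to 0.27 for Igf2bp1, -0.92 to 0.21 for Igf2bp2, -0.34 to 0.69 for Igf2bp3, -0.74 to 0.53 for Arid3a, -0.82 to 0.22 for Dicer1 and -0.016 to 0.86 for Trim71. Lin28b and Trim71 are held by few reads, 87 to 1017 and 17 to 78 per library, which limits their precision.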
